A study of Homo sapiens with 10 samples.

Results

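The genes described here are 30 genes of cholesterol and fatty acid synthesis and of their SREBP control. They were chosen by gene symbol from a list set by function, with earlier results of these data known, out of 23426 gene symbols per sample. By role, 7 act in the mevalonate stage (ACAT2, HMGCS1, MVK, PMVK, MVD, IDI1, FDPS), 8 in the sterol stage (FDFT1, SQLE, LSS, CYP51A1, TM7SF2, NSDHL, EBP, DHCR7), 5 in SREBP regulation (INSIG1, INSIG2, SREBF1, SREBF2, SCAP), 1 in sterol transport (STARD4), 2 in acetyl-CoA supply (ACLY, ACSS2), 6 in fatty acid synthesis and modification (ACACA, FASN, ELOVL6, SCD, FADS1, FADS2) and 1 in glycerolipid synthesis (LPIN1). RNA sequencing was done on MDA-MB-468, an established basal breast cancer line that the study treats as sensitive to PKC412, and on ZR75-1, an established luminal line that it treats as resistant. PKC412 (midostaurin) is a staurosporine derivative that inhibits many protein kinases, and DMSO is its solvent. Each line was treated in 10 cm dishes for 6 h with DMSO (2 samples) or with 1 µM PKC412 (3 samples), which gives 10 samples in 4 groups. The groups carry no engineered allele, and each line stands for its breast cancer subtype alone. The labels do not say whether the replicates came from separate cultures, so p-values measure the spread between these samples, which may be technical.

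Cells make cholesterol from acetyl-CoA. HMG-CoA synthase and the kinases and decarboxylase of the mevalonate stage give isoprenoid units, squalene is formed from farnesyl diphosphate and closed into lanosterol, and a chain of demethylases, reductases and isomerases turns lanosterol into cholesterol. SREBPs are transcription factors held in the endoplasmic reticulum by SCAP and INSIG proteins while sterols are plentiful. When sterols fall, SCAP carries them to the Golgi for cleavage and the freed part enters the nucleus; SREBP-2 (gene SREBF2) is known mainly for the cholesterol genes, and SREBP-1 (gene SREBF1) mainly for the fatty acid genes. SREBPs bind sterol regulatory elements, of which TCACNCCA is one form, usually beside sites for NF-Y (CCAAT) or SP1 (GGGCGG).

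RefSeq promoter windows (GRCh38.p14, 250 bases before to 50 bases from a transcript start) were available for 26 of the 30 genes, in 38 windows; ACAT2, FDFT1, SQLE and FASN had none. Searched on both strands, CCAAT was found in 18 of the 26 genes and in 55.3% of their windows, against 34.6% of all 35116 windows. GGGCGG was found in 25 of the 26 genes and in 86.8% of their windows, against 45% of all. TCACNCCA was found in 2 genes, MVK and SREBF2, and in 5.26% of the windows of the 26 genes, against 3.95% of all. The E-box CACGTG was found in 3 genes and in 7.89% of those windows, against 7.26% of all. TCACNCCA and CCAAT can overlap by up to 3 letters. A match is a run of letters and not a measured binding site.

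Windows of 4 genes are shown. HMGCS1 and INSIG1 had among the largest differences with PKC412 in MDA-MB-468, though neither passed the test in the main fit. SREBF2 is shown as the gene of the factor itself, and FADS2 for the gap between the lines. Capitals mark CCAAT, its reverse complement ATTGG, and TCACNCCA. The windows lie at chr5:43313363-43313662 (minus strand), chr7:155297628-155297927 (plus strand), chr22:41832855-41833154 (plus strand) and chr11:61816154-61816453 (plus strand).
HMGCS1: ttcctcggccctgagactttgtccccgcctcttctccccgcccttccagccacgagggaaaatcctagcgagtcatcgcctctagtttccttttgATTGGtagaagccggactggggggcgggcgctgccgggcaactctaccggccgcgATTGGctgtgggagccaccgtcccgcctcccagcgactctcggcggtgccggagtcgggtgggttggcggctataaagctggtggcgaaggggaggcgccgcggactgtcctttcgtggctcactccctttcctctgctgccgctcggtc
INSIG1: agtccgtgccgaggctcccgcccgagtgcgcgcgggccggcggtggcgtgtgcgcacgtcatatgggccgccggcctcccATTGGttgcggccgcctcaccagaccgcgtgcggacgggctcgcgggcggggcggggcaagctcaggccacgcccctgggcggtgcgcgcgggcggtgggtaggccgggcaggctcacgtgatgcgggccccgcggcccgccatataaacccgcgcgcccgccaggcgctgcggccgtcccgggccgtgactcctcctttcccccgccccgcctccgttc
SREBF2: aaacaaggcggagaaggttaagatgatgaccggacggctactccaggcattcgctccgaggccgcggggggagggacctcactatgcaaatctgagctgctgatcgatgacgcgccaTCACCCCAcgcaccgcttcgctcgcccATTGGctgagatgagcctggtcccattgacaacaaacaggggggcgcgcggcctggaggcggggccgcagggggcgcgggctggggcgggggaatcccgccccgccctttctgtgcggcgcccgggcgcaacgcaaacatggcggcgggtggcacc
FADS2: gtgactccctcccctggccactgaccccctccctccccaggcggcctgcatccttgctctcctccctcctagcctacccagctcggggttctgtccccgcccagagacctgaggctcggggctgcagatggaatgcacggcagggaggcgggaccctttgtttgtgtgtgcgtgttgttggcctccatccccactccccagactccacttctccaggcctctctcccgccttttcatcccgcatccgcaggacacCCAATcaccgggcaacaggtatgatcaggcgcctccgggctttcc
With the start base counted as 0, ATTGG began at -155 and -100 in HMGCS1, at -170 in INSIG1 and at -106 in SREBF2. In SREBF2 the TCACNCCA match began at -133, ahead of that ATTGG. In FADS2 the CCAAT began at 6, inside the transcript.

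The values are FPKM, fragments scaled by transcript length and by mapped fragments, so levels can be compared between genes per length. The number of reads is unknown, and only the spread between samples measures the precision. Basal keratins and other basal markers summed to 2399 to 2650 FPKM in MDA-MB-468 and 19.3 to 25.6 FPKM in ZR75-1, and luminal markers to 72.3 to 91.6 and 4508 to 8061 FPKM. The markers thus ran with the labelled subtypes, except CDH3, a basal marker that was lower in MDA-MB-468 (10.6 FPKM against 21.6 FPKM as DMSO means). A list of 6 leukocyte, fibroblast and endothelial markers summed to 1.37 to 2.55 FPKM in MDA-MB-468, to 2.32 to 2.83 FPKM in ZR75-1 with DMSO and to 6.73 to 11.2 FPKM in ZR75-1 with PKC412. COL1A1 alone reached up to 11.1 FPKM there and was called higher with PKC412 in ZR75-1 (1.49, adjusted p = 0.0182). PECAM1, an endothelial and leukocyte marker, was called higher with PKC412 in MDA-MB-468 (0.31, adjusted p = 0.0404), at a mean of 0.470 FPKM in DMSO and 0.827 FPKM in PKC412. By contrast, PTPRC, COL3A1, PDGFRB and VWF were at or near 0 in every group, and the part of these markers in the results was not tested. In bulk RNA, fewer cells of a kind and less RNA per cell cannot be told apart. The samples also differed in how FPKM ran with the GC content of the transcript. The slope, in log2 units per 10 points of GC, was 0.373 and 0.057 in the MDA-MB-468 DMSO samples, -0.287, -0.024 and -0.119 in its PKC412 samples, 0.314 and -0.192 in the ZR75-1 DMSO samples and -0.107, 0.342 and -0.356 in its PKC412 samples. The slopes therefore split by treatment in MDA-MB-468 and did not in ZR75-1. The 30 genes have transcripts of 34.2% to 65.6% GC with a median of 51.3%, and the genes tested had a median of 49.9%.

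All 30 genes were expressed in every sample, from 0.239 FPKM (STARD4) to 531 FPKM (EBP), and all 30 exceeded the filter of a mean of 0.1 FPKM in each of the 4 groups. FDPS, which makes farnesyl diphosphate, lay at 272 to 451 FPKM in all 10 samples with nearly equal levels in the lines. By DMSO mean the lowest genes were STARD4, a sterol carrier, FADS1 and ELOVL6 in MDA-MB-468, and STARD4, LPIN1 and ELOVL6 in ZR75-1.

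**Figure D1:**
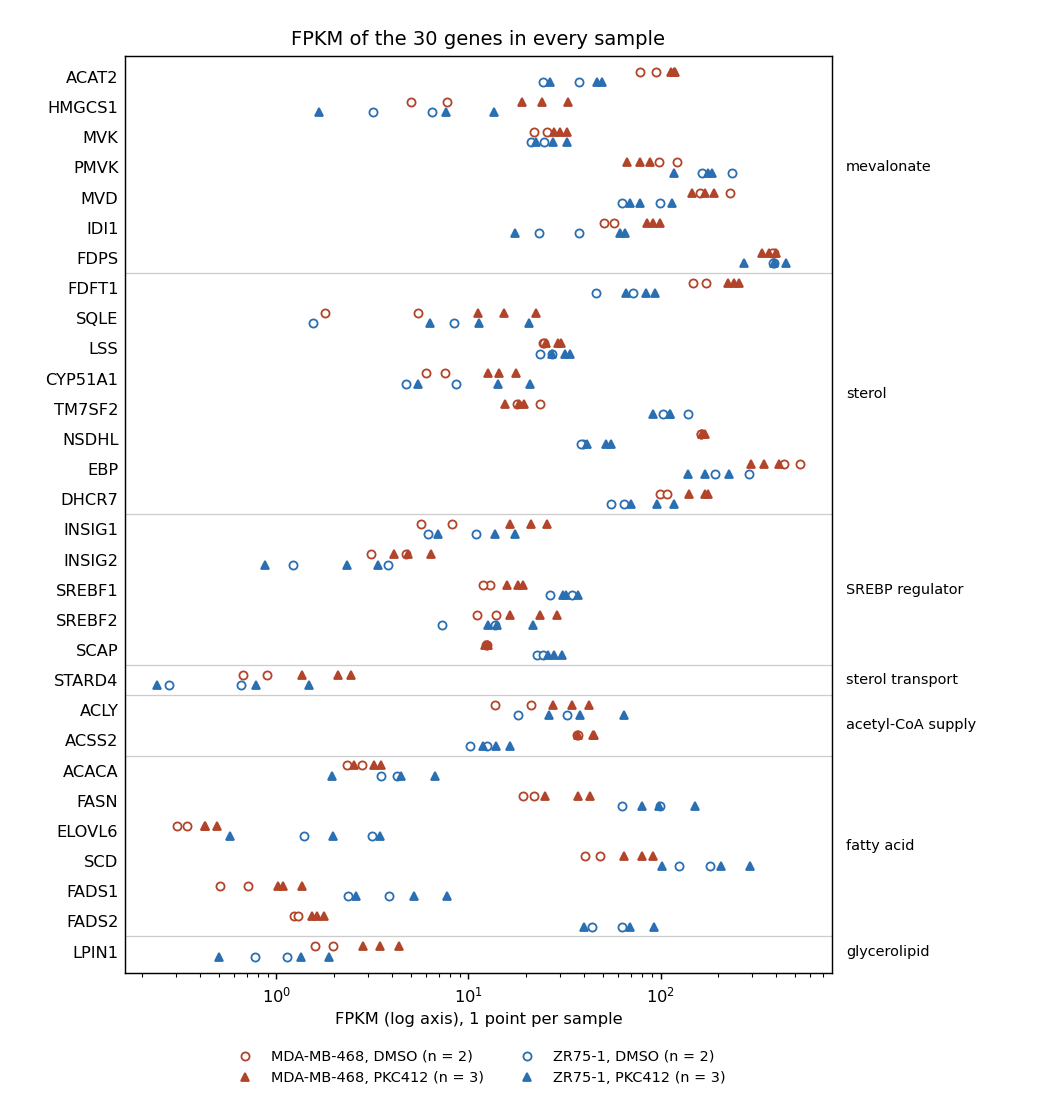
FPKM (log axis) of the 30 genes in the 10 samples, 1 point per sample, with the roles at the right, MDA-MB-468 in red and ZR75-1 in blue, open circles for DMSO and filled triangles for PKC412. FADS2 shows the widest gap between the lines, with every MDA-MB-468 sample at 1.76 FPKM or lower and every ZR75-1 sample at 39.7 FPKM or higher.

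The first comparison asks how the lines differ without the drug. In DMSO, 7 of the 30 genes were higher in MDA-MB-468 and 8 were higher in ZR75-1 (limma on log2(FPKM + 1), 4 group means over all 10 samples, Benjamini-Hochberg adjusted p under 0.05 over 16071 genes). Of all genes tested, 26.5% were called higher and 15.9% lower in MDA-MB-468. The genes higher in MDA-MB-468 were ACAT2 and MVD of the mevalonate stage, FDFT1, NSDHL, EBP and DHCR7 of the sterol stage and ACSS2. The genes higher in ZR75-1 were FASN, SCD, FADS1 and FADS2 of the fatty acid group, SREBF1 and SCAP of the regulators, and PMVK and TM7SF2. All 6 fatty acid genes had a negative difference (MDA-MB-468 minus ZR75-1), with a median of -1.54 on the log2 scale, and the 8 sterol stage genes had a median of 0.42, against 0.11 over all genes tested.

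**Figure D2:**
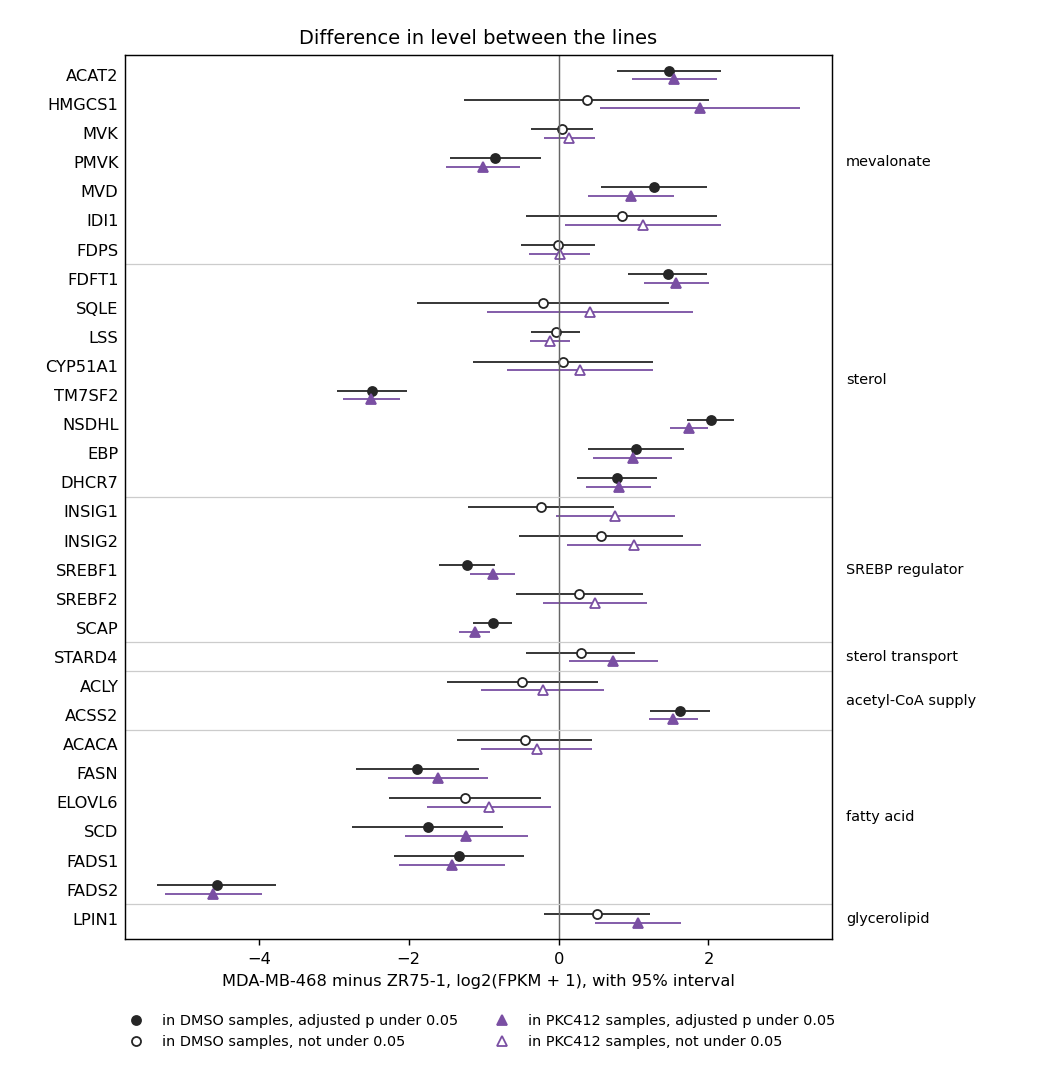
Difference in level between the lines, MDA-MB-468 minus ZR75-1, in log2(FPKM + 1) with 95% intervals from limma, for DMSO samples (circles) and PKC412 samples (triangles), with adjusted p under 0.05 filled. The 15 genes filled for DMSO are also filled for PKC412, from -4.56 for FADS2 to 2.03 for NSDHL in DMSO.

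Within the mevalonate stage, ACAT2 (chromosome 6, 159760328 to 159779055, plus strand, GENCODE 29 on GRCh38), the cytosolic thiolase that joins the first 2 acetyl-CoA units, stood at 78.6 and 94.3 FPKM in DMSO and 119, 114 and 118 FPKM in PKC412 in MDA-MB-468, and at 24.6 and 37.8 FPKM in DMSO and 46.7, 26.6 and 49.4 FPKM in PKC412 in ZR75-1. Every MDA-MB-468 sample exceeded every ZR75-1 sample, and the DMSO difference was 1.47 ± 0.30 (SE, log2, adjusted p = 0.00479 by limma), a ratio of means of 2.77. In the GENCODE 29 annotation 34.8% of its exonic bases also lie in exons of SOD2 and 12.5% in exons of TCP1, both on the other strand, so that without strand their reads cannot be told apart. MVD, which decarboxylates mevalonate diphosphate, stood at 229 and 161 FPKM in DMSO and 146, 189 and 169.6 FPKM in PKC412 in MDA-MB-468, and at 99.1 and 62.8 FPKM in DMSO and 115, 69.0 and 78.3 FPKM in PKC412 in ZR75-1. Its lines did not overlap either, with a difference of 1.27 ± 0.31 (SE, log2, adjusted p = 0.0102). PMVK, the kinase of the step just before, ran the other way. It stood at 121 and 98.4 FPKM in DMSO and 66.8, 88.3 and 77.8 FPKM in PKC412 in MDA-MB-468, and at 236 and 165 FPKM in DMSO and 176, 185 and 117 FPKM in PKC412 in ZR75-1, with a difference of -0.85 ± 0.26 (SE, log2, adjusted p = 0.0324). A ZR75-1 sample with PKC412 lay below the highest MDA-MB-468 sample, so its lines overlapped. HMGCS1, MVK, IDI1 and FDPS gave differences of 0.38, 0.05, 0.84 and -0.01, none of which passed the test.

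Of the sterol stage, NSDHL, a dehydrogenase that takes part in removing the methyl groups at carbon 4, had the smallest adjusted p of the 30 genes. It lies on the X chromosome at 152830967 to 152869729 (plus strand, GRCh38). It stood at 163 and 162 FPKM in DMSO and 164, 167 and 171 FPKM in PKC412 in MDA-MB-468, and at 39.5 and 38.5 FPKM in DMSO and 55.5, 41.4 and 51.8 FPKM in PKC412 in ZR75-1. The values within a group lay close together and the lines were far apart, with a difference of 2.03 ± 0.14 (SE, log2, adjusted p = 1.06e-05) and a ratio of means of 4.16. FDFT1, the squalene synthase, stood at 148 and 173 FPKM in DMSO and 258, 225 and 242 FPKM in PKC412 in MDA-MB-468, and at 46.1 and 72.2 FPKM in DMSO and 84.2, 66.5 and 93.8 FPKM in PKC412 in ZR75-1, a difference of 1.46 ± 0.23 (SE, log2, adjusted p = 0.00123). EBP, the sterol isomerase and the most abundant of the 30 genes in MDA-MB-468 with DMSO, stood at 531 and 438 FPKM in DMSO and 297, 413 and 345 FPKM in PKC412 there, and at 287 and 192 FPKM in DMSO and 226, 139 and 171 FPKM in PKC412 in ZR75-1. The lines did not overlap for FDFT1 or EBP, and the EBP difference was 1.03 ± 0.28 (SE, log2, adjusted p = 0.0177). DHCR7, the reductase of the last step to cholesterol, stood at 98.8 and 108 FPKM in DMSO and 177, 141 and 171 FPKM in PKC412 in MDA-MB-468, and at 55.1 and 64.9 FPKM in DMSO and 95.7, 70.4 and 118 FPKM in PKC412 in ZR75-1, a difference of 0.78 ± 0.23 (SE, log2, adjusted p = 0.0253). Its DMSO samples did not overlap between the lines, but its highest ZR75-1 sample lay above the MDA-MB-468 DMSO samples. TM7SF2 (chromosome 11, 65111845 to 65116384, plus strand), a sterol reductase that shares the carbon 14 step with the lamin B receptor, was the exception of the stage. It stood at 23.5 and 17.9 FPKM in DMSO and 15.4, 19.5 and 18.3 FPKM in PKC412 in MDA-MB-468, and at 139 and 103 FPKM in DMSO and 112, 112 and 91.7 FPKM in PKC412 in ZR75-1. The lines did not overlap, with a difference of -2.49 ± 0.20 (SE, log2, adjusted p = 2.9e-05), 5.86 times higher in ZR75-1 by means. SQLE, LSS and CYP51A1 gave -0.20, -0.04 and 0.06 and did not pass the test.

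Among the regulators, SREBF1 (chromosome 17, 17810399 to 17837002, minus strand) stood at 12.9 and 11.9 FPKM in DMSO and 19.1, 15.9 and 18.1 FPKM in PKC412 in MDA-MB-468, and at 26.6 and 34.6 FPKM in DMSO and 32.2, 30.9 and 37.2 FPKM in PKC412 in ZR75-1. All ZR75-1 samples were above all MDA-MB-468 samples, with a difference of -1.22 ± 0.16 (SE, log2, adjusted p = 0.000446) and a ratio of means of 2.46. SCAP (chromosome 3, 47413694 to 47477126, minus strand), the SREBP escort, hardly varied in MDA-MB-468 at 12.4 and 12.3 FPKM in DMSO and 12.6, 12.4 and 12.2 FPKM in PKC412, and stood at 22.8 and 24.3 FPKM in DMSO and 26.0, 30.7 and 27.9 FPKM in PKC412 in ZR75-1. Its difference was -0.88 ± 0.11 (SE, log2, adjusted p = 0.000373), again without overlap. SREBF2, INSIG1 and INSIG2 did not pass the test, with differences of 0.27, -0.24 and 0.57. FPKM per gene do not separate the 2 SREBP-1 forms that SREBF1 encodes.

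ACSS2 (chromosome 20, 34872146 to 34927962, plus strand), which makes acetyl-CoA from acetate, was higher in MDA-MB-468. It stood at 36.6 and 37.0 FPKM in DMSO and 44.8, 37.1 and 44.7 FPKM in PKC412 there, and at 10.2 and 12.5 FPKM in DMSO and 13.8, 11.8 and 16.5 FPKM in PKC412 in ZR75-1. The lines did not overlap, and the difference was 1.62 ± 0.17 (SE, log2, adjusted p = 0.000143). ACLY, which makes acetyl-CoA from citrate, gave -0.48 ± 0.44 (SE, log2) and did not pass the test (adjusted p = 0.427).

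The fatty acid group held the widest gap. FADS2 (chromosome 11, 61792980 to 61867354, plus strand), the delta-6 desaturase of polyunsaturated fatty acids, stood at 1.24 and 1.29 FPKM in DMSO and 1.76, 1.54 and 1.62 FPKM in PKC412 in MDA-MB-468, and at 43.9 and 62.8 FPKM in DMSO and 69.1, 39.7 and 92.5 FPKM in PKC412 in ZR75-1. Its mean in DMSO was 42.2 times higher in ZR75-1, with a log2 difference of -4.56 ± 0.35 (SE, adjusted p = 2.04e-05), which the pseudocount of 1 FPKM makes smaller than the ratio. FADS1, the delta-5 desaturase (chromosome 11, 61799625 to 61829318, minus strand, inside the span of FADS2), stood at 0.508 and 0.708 FPKM in DMSO and 1.36, 1.03 and 1.09 FPKM in PKC412 in MDA-MB-468, and at 2.35 and 3.85 FPKM in DMSO and 5.19, 2.60 and 7.71 FPKM in PKC412 in ZR75-1. The FADS1 difference ran the same way at -1.33 ± 0.38 (SE, log2, adjusted p = 0.0217), with means 5.10 times higher in ZR75-1. The RefSeq starts of FADS2 lie 599 and 800 bases from that of FADS1, on opposite strands, and 490 exonic bases are shared by both genes in GENCODE 29, which is 5.5% of FADS1 and 7.29% of FADS2. Without strand, reads from the shared bases cannot be told apart. As DMSO means in ZR75-1, FADS2 was at 53.4 FPKM and FADS1 at 3.10 FPKM, so FADS2 reads could raise the FADS1 values there. Their part in the FADS1 difference was not tested.

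FASN (chromosome 17, 82078333 to 82098332, minus strand), the fatty acid synthase, stood at 19.3 and 22.1 FPKM in DMSO and 42.8, 25.0 and 37.2 FPKM in PKC412 in MDA-MB-468, and at 62.7 and 99.8 FPKM in DMSO and 98.5, 80.4 and 152 FPKM in PKC412 in ZR75-1, a difference of -1.89 ± 0.36 (SE, log2, adjusted p = 0.00312). SCD, the stearoyl-CoA desaturase that makes monounsaturated fatty acids, stood at 40.2 and 48.1 FPKM in DMSO and 91.0, 64.4 and 79.7 FPKM in PKC412 in MDA-MB-468, and at 124 and 181 FPKM in DMSO and 206, 102 and 293 FPKM in PKC412 in ZR75-1, a difference of -1.74 ± 0.44 (SE, log2, adjusted p = 0.0125). Neither gene overlapped between the lines. ELOVL6, the elongase of saturated chains, lay at 0.303 to 0.492 FPKM in the 5 MDA-MB-468 samples and at 0.572 to 3.48 FPKM in the 5 ZR75-1 samples. Its difference of -1.25 ± 0.44 (SE, log2) stood at the threshold, with an adjusted p of 0.05002. ACACA, the acetyl-CoA carboxylase that gives the first committed step, differed by -0.45 ± 0.39 (SE, log2) and did not pass the test.

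Over all 5 samples per line, 6 genes were higher in every MDA-MB-468 sample than in any ZR75-1 sample (ACAT2, MVD, FDFT1, NSDHL, EBP, ACSS2), where 29.7% of all genes tested did so, and 8 were lower (TM7SF2, SREBF1, SCAP, FASN, ELOVL6, SCD, FADS1, FADS2), where 18.1% did so. With the lines compared in the PKC412 samples, 10 genes were called higher and 8 lower in MDA-MB-468, against 37% and 21.6% of all genes tested. The 15 genes called in DMSO were all called again in the same direction, and HMGCS1 (1.89), STARD4 (0.73) and LPIN1 (1.06) joined those higher in MDA-MB-468. Of the 15 genes, 9 stayed under the threshold in each of the 20 alternatives run for this comparison, namely ACAT2, FDFT1, NSDHL and ACSS2, higher in MDA-MB-468, and TM7SF2, SREBF1, SCAP, FASN and FADS2, higher in ZR75-1. Without MDA-MB-468 DMSO 1 the calls of MVD, EBP, DHCR7, PMVK, SCD and FADS1 were lost, which left 4 higher and 5 lower, and without ZR75-1 DMSO 2 those of MVD, EBP, SCD and FADS1 were lost. Leaving out MDA-MB-468 DMSO 2 ended the calls of DHCR7, PMVK and FADS1, leaving out ZR75-1 DMSO 1 those of DHCR7 and PMVK, and leaving out MDA-MB-468 PKC412 3 that of PMVK. The GC and length adjustment ended the calls of EBP (adjusted p = 0.0634) and DHCR7 (adjusted p = 0.0597) and brought 3 genes under the threshold, ELOVL6 (-1.45, adjusted p = 0.000358), INSIG1 (-0.51, adjusted p = 0.0343) and LPIN1 (0.45, adjusted p = 0.0466). ELOVL6 also passed with median-ratio rescaling (adjusted p = 0.0200), a pseudocount of 0.1 (adjusted p = 0.0242) a filter at a mean of 1 FPKM (adjusted p = 0.0485), and without ZR75-1 DMSO 1, PKC412 2 or PKC412 3. Median-ratio rescaling ended the calls of EBP and PMVK, and the replicate block that of PMVK.

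The second comparison asks which of these genes responded to PKC412 in MDA-MB-468. None of the 30 genes passed the adjusted threshold, where 0.691% of all genes tested were called higher and 0.566% lower. Of the 30 differences 25 were positive, with a median of 0.43 on the log2 scale against 0.11 over all genes tested. In 22 genes every PKC412 sample lay above both DMSO samples, where 39.6% of all genes did so, and in 2 genes, PMVK and EBP, every PKC412 sample lay below, where 16.3% did so. At an unadjusted p under 0.05 by limma, 10 genes were higher and 0 lower (HMGCS1, FDFT1, SQLE, DHCR7, INSIG1, SREBF1, SREBF2, STARD4, ACLY, LPIN1), against 16.4% of all genes in either direction. The mean FPKM was at least 2-fold higher with PKC412 for 6 genes, where it was so for 17.3% of all genes, and at least 2-fold lower for 0, where it was so for 3.2%. In ZR75-1 it was at least 2-fold higher for 2 genes and lower for 0, where it was so for 10.1% and 3.16% of all genes.

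**Figure D3:**
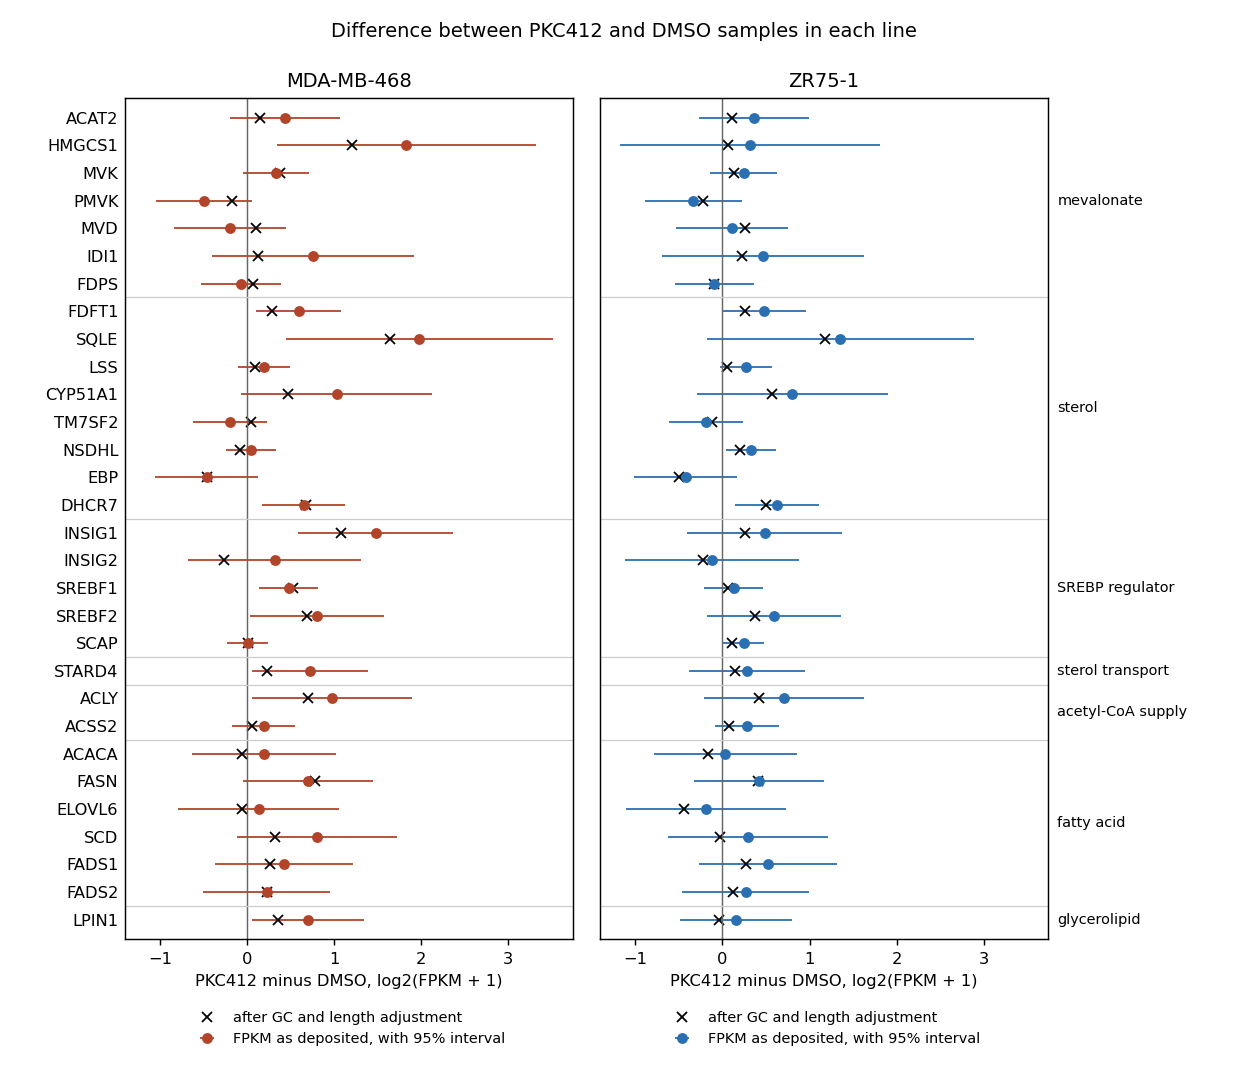
Difference between PKC412 and DMSO samples in log2(FPKM + 1) for the 30 genes in each line, with 95% intervals from limma, and as crosses the same difference after FPKM were adjusted for GC content and transcript length. SQLE (1.98), HMGCS1 (1.83) and INSIG1 (1.48) stand furthest right for MDA-MB-468, and SQLE at 1.36 is the largest value for ZR75-1.

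The genes described next were picked after their values were seen, as those with the largest differences. SQLE, the squalene epoxidase and a rate-limiting step of the sterol stage, stood at 1.80 and 5.43 FPKM in DMSO and 22.4, 11.2 and 15.3 FPKM in PKC412 in MDA-MB-468, a ratio of means of 4.51 and a log2 difference of 1.98 ± 0.67 (SE, adjusted p = 0.241). HMGCS1, the HMG-CoA synthase, stood at 5.04 and 7.70 FPKM and at 32.9, 19.1 and 24.1 FPKM, a ratio of 3.98 and a difference of 1.83 ± 0.65 (SE, adjusted p = 0.253). INSIG1, the retention protein whose own gene is a known SREBP target, stood at 5.65 and 8.19 FPKM and at 25.8, 16.4 and 21.2 FPKM, a ratio of 3.05 and a difference of 1.48 ± 0.39 (SE, adjusted p = 0.147). In all 3 genes the PKC412 samples were separate from the DMSO samples, and the lowest PKC412 value was more than 2 times the mean of the DMSO samples. CYP51A1, the lanosterol demethylase, had a ratio of 2.20, STARD4 of 2.51 and ACLY of 2.01. SREBF2 stood at 11.02 and 13.9 FPKM in DMSO and 28.8, 16.4 and 23.5 FPKM in PKC412, a difference of 0.80 ± 0.34 (SE, adjusted p = 0.297), and SREBF1 differed by 0.47 ± 0.15 (SE, adjusted p = 0.212). LPIN1, the phosphatidate phosphatase lipin 1, differed by 0.69 and DHCR7 by 0.65. SCAP, at 0.0039, and NSDHL, at 0.04, were nearly equal in DMSO and PKC412, while PMVK gave -0.50 and EBP -0.47.

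These differences moved with the GC slopes given above. PKC412 sample 1 of MDA-MB-468, which had the lowest GC slope, was the highest of its line for 23 of the 30 genes, and DMSO sample 1, which had the highest slope, was the lowest for 21. Across the 30 genes the difference correlated with transcript GC content at Pearson's r = -0.46, against -0.41 over 14336 genes tested with a known GC content, where all points share the same 5 libraries. SQLE, HMGCS1 and INSIG1 have transcripts of 46.5%, 40.2% and 46% GC, and PMVK and MVD of 59.5% and 65.6%. After FPKM were adjusted for GC content and transcript length in each sample, the r over the 30 genes was -0.08 and the median difference 0.23, against 0.0071 over all genes. In 19 genes every PKC412 sample then still lay above both DMSO samples, against 28.4% of all genes. INSIG1 was then the 1 gene of the 30 called (1.08, adjusted p = 0.00970), and SQLE kept 1.65 (adjusted p = 0.109) and HMGCS1 1.21 (adjusted p = 0.104). The SE of INSIG1 was 0.16 in that fit and 0.39 before it. At an unadjusted p under 0.05 by limma stood 10 of the 30 genes in both fits, against 21.1% of all genes after the adjustment and 16.4% before. The share of all genes called in the adjusted fit is not given here. NSDHL (-0.08), MVD (0.10) and TM7SF2 (0.05) changed sign. The GC slope and the treatment cannot be told apart in MDA-MB-468, and the adjustment removes any response that runs along GC content as well.

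**Figure D4:**
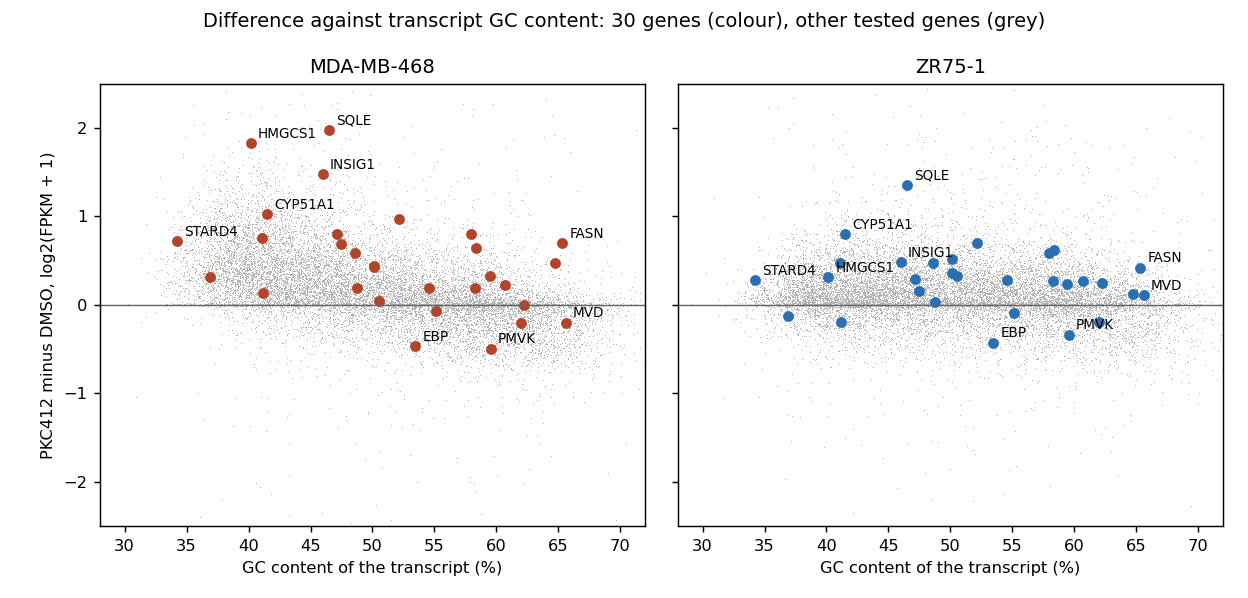
Difference between PKC412 and DMSO samples in log2(FPKM + 1) against the GC content of the transcript (%) for the 30 genes in colour and the other tested genes in grey, with 104 genes in MDA-MB-468 and 97 in ZR75-1 outside the axes. In MDA-MB-468 the grey cloud falls from left to right (r = -0.41). SQLE, HMGCS1 and INSIG1 lie at 1.98, 1.83 and 1.48, none of them called. The mean FPKM was at least 2-fold higher with PKC412 for 17.3% of all genes tested there.

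In ZR75-1 the same comparison also gave 0 of 30 genes past the adjusted threshold, where 0.747% of all genes were called higher and 0.199% lower. At an unadjusted p under 0.05 by limma, 3 genes were higher (NSDHL, DHCR7, SCAP) and 0 lower, against 11.2% of all genes in either direction. Here 24 of the 30 differences were positive, with a median of 0.28 against 0.07 over all genes. In 4 genes every PKC412 sample lay above both DMSO samples (LSS, NSDHL, DHCR7, SCAP), where 14.8% of all genes did so, and in 0 genes every PKC412 sample lay below, where 6.98% did so. The largest differences were SQLE at 1.36 ± 0.67 (SE, log2, adjusted p = 0.498), CYP51A1 at 0.80 and ACLY at 0.70, and DHCR7 gave 0.62 ± 0.21 (SE, log2, adjusted p = 0.334). SQLE stood at 1.54 and 8.41 FPKM in DMSO and 11.4, 6.27 and 20.8 FPKM in PKC412, and HMGCS1 at 3.17 and 6.49 FPKM and at 7.69, 1.66 and 13.6 FPKM. For both genes the groups overlapped, and PKC412 sample 2 of HMGCS1 was the lowest of the line. INSIG1 stood at 6.14 and 10.9 FPKM in DMSO and 13.7, 6.95 and 17.4 FPKM in PKC412, a difference of 0.48 ± 0.39 (SE, log2, adjusted p = 0.697).

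DMSO 1 and PKC412 2 of ZR75-1, with the highest GC slopes of the line, were its 2 lowest samples for 19 of the 30 genes, and PKC412 3, with the lowest slope, was the highest for 21. Without PKC412 2, the PKC412 samples lay above both DMSO samples in 21 genes in place of 4, where 31.8% of all genes did so, and the median difference was 0.49. Without DMSO 2 they did so in 15 genes, where 41.8% of all genes did. Without both DMSO 1 and PKC412 2, 0 genes were called in ZR75-1 and the median difference was 0.32. The same omission leaves the MDA-MB-468 samples as they are and changes the estimate of the spread that the groups share, and IDI1, the isopentenyl diphosphate isomerase, was then called in MDA-MB-468 at its unchanged difference of 0.76, while INSIG1 had an adjusted p of 0.0595. After the adjustment for GC content and length, 0 genes were called in ZR75-1 and the median difference was 0.12.

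The study asks whether the sensitive and the resistant line respond differently. The difference of the PKC412 responses (MDA-MB-468 minus ZR75-1) was called in 0 of the 30 genes, where 0.0684% of all genes were called higher and 0.199% lower, and 0 of the 30 had an unadjusted p under 0.05 by limma, against 7.05% of all genes. The largest were HMGCS1 at 1.51 with a 95% interval of -0.60 to 3.62, INSIG1 at 0.99 with an interval of -0.26 to 2.25 and SQLE at 0.62 with an interval of -1.55 to 2.79. These intervals hold 0 and also differences of several fold, so the responses of the lines were not shown to differ or to be alike. After the GC and length adjustment the intervals by limma were 0.32 to 1.33 for INSIG1 (0.83, adjusted p = 0.167) and 0.05 to 2.24 for HMGCS1 (1.14, adjusted p = 0.438). That of SQLE was -1.05 to 1.97 (0.46). In that fit 2 of the 30 genes had an unadjusted p under 0.05 by limma, against 10.6% of all genes. For DHCR7 the main fit gave a difference of 0.02 with an interval of -0.66 to 0.70, which does not show equal responses.

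Other genes of these pathways were counted in 4 lists chosen by function, and apart from ACACB the genes named from them were picked after their values were seen. With PKC412, 0.691% of all genes tested were called higher and 0.566% lower in MDA-MB-468, and 0.747% and 0.199% in ZR75-1. Of 5 other sterol synthesis enzymes, 0 were called in either line, with median differences of 0.76 for MDA-MB-468 and 0.32 for ZR75-1. In DMSO, 1 of them was called higher in MDA-MB-468 than in ZR75-1, the sterol desaturase SC5D (1.11, adjusted p = 0.0435). MSMO1, a methyl sterol oxidase, was at 28.7 ± 7.7 FPKM (SD, n = 2) in DMSO and 63.1 ± 1.6 FPKM (SD, n = 3) in PKC412 in MDA-MB-468 (1.14, adjusted p = 0.298). Of 7 genes of SREBP processing and sterol-regulated degradation, 0 were called in either line (medians 0.45 and 0.58), and 1, ERLIN2, was lower in MDA-MB-468 than in ZR75-1 in DMSO (-1.59, adjusted p = 0.0357). Of 9 genes of LXR and cholesterol handling, 8 passed the filter and 0 were called in either line (medians 0.39 and 0.23), while ABCG1, a sterol exporter, NPC2 and LPCAT3 were higher in ZR75-1 in DMSO (differences of -2.76, -0.97 and -1.89). ABCA1 stayed below the filter. Beside these line calls in DMSO, 26.5% of all genes tested were called higher and 15.9% lower in MDA-MB-468.

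Of 19 other fatty acid and glycerolipid genes, 0 were called in MDA-MB-468, where 0.691% of all genes were called higher and 0.566% lower. In ZR75-1, where 0.747% of all genes were called higher and 0.199% lower, 1 of the 19 was called higher with PKC412. This was ACACB, the mitochondrial acetyl-CoA carboxylase that makes malonyl-CoA as a brake on fatty acid oxidation, at 1.06 to 1.48 FPKM in DMSO and 4.80 to 7.09 FPKM in PKC412, a difference of 1.57 ± 0.17 (SE, log2, adjusted p = 0.00658). In MDA-MB-468 it was at 0.744 to 0.822 FPKM and 0.912 to 1.03 FPKM, and the responses of the lines differed by -1.43 (adjusted p = 0.0840), which did not pass the threshold. That difference passed it after the GC and length adjustment (-1.36, adjusted p = 0.00912), without the intensity trend of limma (adjusted p = 0.0443) and without ZR75-1 PKC412 2 (-1.53, adjusted p = 0.0499), and its adjusted p was 0.0525 to 0.894 in the other alternatives. The ZR75-1 call of ACACB was lost with the line fitted alone (adjusted p = 0.430), with the replicate block (adjusted p = 0.908) and with the block and the adjustment together (adjusted p = 0.215). In ZR75-1 the groups of ACACB were separate. Those of ACACA, its cytosolic partner, overlapped, at 3.52 and 4.23 FPKM in DMSO and 4.45, 1.95 and 6.69 FPKM in PKC412. Between the lines in DMSO, 5 of the 19 were higher in MDA-MB-468 and 2 were lower, against 26.5% and 15.9% of all genes tested. SCD5, the second human stearoyl-CoA desaturase, was higher in MDA-MB-468 (2.31, adjusted p = 0.000351), at 6.68 FPKM against 0.550 FPKM as group means, where SCD was lower there.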

How the data were processed

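RNA was extracted with Trizol and sequenced, as total RNA per the labels, from 10 samples. The authors deposited FPKM values per gene symbol, 1 file per sample with the same 23426 symbols, made by an in-house pipeline. The submitters' processing notes name CASAVA 1.82, TopHat2 and hg19. The quantifier and the annotation are not given in the sources used here, nor is the use of strand. The study's methods describe triplicates, and 2 DMSO samples per line were analysed here. They and the labels give 1 µM PKC412, while some legends of the study give a lower dose. FPKM carry no read counts, so depth is unknown and a fold on the log scale understates the change of low genes.

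Differences were tested with limma 3.58.1 (R 4.3.3) after log2(FPKM + 1) transformation, over all 10 samples in 4 groups, with eBayes (trend) and 6 residual degrees of freedom before moderation, for 16071 genes whose group mean exceeded 0.1 FPKM in 1 or more groups, 2-sided, with Benjamini-Hochberg adjustment at 0.05 over all genes tested. The 4 contrasts were PKC412 against DMSO in each line, the difference of those, and the lines in DMSO. No single gene can reach p under 0.05 in a permutation of 2 against 3 samples, so none was used. The scripts were tested on simulated data.

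GC content and length came from GENCODE 29 (GRCh38) for 88.1% of the symbols and for all 30 genes, and were used for names, positions and the adjustment, in which cubic polynomials of GC and log2 length were divided out of each sample. RefSeq promoter windows came from GRCh38.p14. Alternatives were a pseudocount of 0.1, no filter, a filter at 1 FPKM, median-ratio rescaling, a replicate block, each line alone, no trend, the GC and length adjustment alone and with the block, the lines compared in PKC412, and each sample left out in turn. Added after seeing the data were the lines compared in PKC412 with the adjustment, and a fit without ZR75-1 DMSO 1 and PKC412 2. Python 3.11.15, pandas 2.3.3, numpy 2.4.6 and matplotlib 3.10.9 were used for the rest.

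The 30 genes and all gene lists were chosen with earlier results of these data known. Genes with an adjusted p under 0.05 in a contrast were to be given in every sample, the others by ranges and counts, and from the 4 further lists up to 4 genes past the threshold in a PKC412 contrast. One gene of these lists is not reported here.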

Additional observations from a re-analysis of the deposited data

How the results depend on the processing

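The line comparison kept its direction in every alternative for each of the 16 genes followed, and 9 of the 15 calls held throughout. The counts of genes higher and lower in MDA-MB-468, 7 and 8, were 7 and 7 with the replicate block, 6 and 8 with median-ratio rescaling and 6 and 10 after the GC and length adjustment. They ranged from 4 to 8 and from 5 to 9 with 1 sample left out, and the median over the 30 genes from -0.14 to 0.28 around 0.02. In PKC412 samples that median was 0.35. At an unadjusted p under 0.05 by limma, 49.3% of all genes differed between the lines in DMSO in the main fit and 60.3% after the GC and length adjustment. The shares of all genes called with the block, the rescaling or the adjustment are not given here. The counts of called genes therefore show only how the calls moved. In MDA-MB-468, 0 genes were called with the replicate block (median difference 0.44), 1 after the GC and length adjustment (INSIG1), 0 with both (median 0.21) and 1 without ZR75-1 DMSO 1 and PKC412 2 (IDI1). In ZR75-1 and in the difference of the responses, 0 genes were called in any alternative. With 1 sample left out the median was 0.11 to 0.49 in ZR75-1 and -0.063 to 0.40 for the difference of the responses, and the PKC412 samples lay above both DMSO samples in 4 to 21 genes in ZR75-1, the 21 where 31.8% of all genes did so.

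Genes with small differences changed sign, none of them called. In MDA-MB-468 SCAP gave -0.14 and NSDHL -0.11 with median-ratio rescaling, NSDHL -0.083, MVD 0.10 and TM7SF2 0.048 after the GC and length adjustment, and NSDHL -0.091, MVD 0.10 and TM7SF2 0.036 with the replicate block added. In ZR75-1 HMGCS1 gave -0.22 and SCD -0.043 with the block, SCD -0.030 after the adjustment, and HMGCS1 -0.21, SREBF1 -0.032 and SCD -0.12 with both. Without ZR75-1 DMSO 1 and PKC412 2, SREBF1 gave -0.0011 and EBP 0.032 there, and the difference of the responses of DHCR7 was -0.055, after -0.00024 with median-ratio rescaling. With 1 sample left out, the ranges crossed 0 for SCAP (-0.0072 to 0.016) and MVD (-0.45 to 0.051) in MDA-MB-468, for HMGCS1 (-0.22 to 1.01), SREBF1 (-0.054 to 0.31) and SCD (-0.043 to 0.71) in ZR75-1, and for the difference of the responses of SQLE (-0.32 to 1.56) and DHCR7 (-0.17 to 0.19). The cause was not tested.

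It is not known if a shared replicate number links a DMSO sample to a PKC412 sample. Over 7685 genes, deviations from the group means of same-numbered samples correlated at -0.69 for replicate 1 and -0.61 for replicate 2 in MDA-MB-468, and at 0.12 and -0.63 in ZR75-1. With 2 DMSO samples per line, the deviations of 1 are the mirror image of the other. The values of a line are therefore not separate, and they can neither show nor exclude pairing. The block left 2 residual degrees of freedom. With 2 DMSO samples per line and unknown depth, the precision is set by the spread, as in the 95% interval of 0.44 to 3.51 for SQLE in MDA-MB-468.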
